A study of Homo sapiens with 27 samples.

Results

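The comparison described here is that of SK-OV-3 cells under cycling hypoxia with SK-OV-3 cells under control conditions. SK-OV-3 is an established human ovarian cancer cell line with high ERBB2 expression. The labels name 3 arrays of each condition, and these 6 arrays were taken from the 27 Human Genome U133 Plus 2.0 arrays of the study, which also holds chronic hypoxia arrays and the cell lines PC-3 (prostate cancer) and WM793B (melanoma). In cycling hypoxia, cells spent periods of 4 h or 12 h at 1% oxygen, interrupted by reoxygenation at 21% oxygen, over 72 h, and were collected after a reoxygenation period. In chronic hypoxia they stayed at 1% oxygen, and in the control at 21% oxygen, for the same 72 h. All were unmodified cells of 1 line grown on plates in McCoy's medium with fetal bovine serum, without stroma or blood vessels. The arrays of a group are labelled as biological replicas. Nothing says whether they came from separate culture passages or days, so p values measure the spread between these arrays.

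Cells sense oxygen through prolyl hydroxylases, which need oxygen to mark the alpha subunits of hypoxia-inducible factors (HIF) for destruction. When oxygen is low, HIF binds DNA and raises genes of glycolysis, blood vessel growth and matrix synthesis. When oxygen returns, the mark and the destruction resume, and reactive oxygen species can form. Other sensors relevant to these conditions are NRF2, the factor that turns on antioxidant and detoxifying enzymes, ATF4, which responds to a lack of amino acids and to protein folding stress, and the factors NF-kB and AP-1, which drive cytokines and early growth responses.

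Every level below is a log2 GC-RMA value, a probe set's brightness after correction for background and normalization between arrays, and a log2 difference of 1 is a 2-fold change. Array medians ran from 2.61 to 2.63, and the lowest correlation between arrays of a group was 0.9959 to 0.9962. A level of 5 or less was treated as noise: 66.9% ± 0.11 of probe sets lay there under cycling hypoxia and 67.3% ± 0.073 in control cells (SD, n = 3 each; exact permutation p = 0.1, two-sided, the smallest that 3 against 3 allows). All 7 epithelial markers were above noise, with ERBB2 at 13.14 ± 0.10 under cycling hypoxia and 12.78 ± 0.26 in control cells. Their summed linear level ran from 25323 to 25391 under cycling hypoxia and from 15577 to 18127 in control cells. Markers of leukocytes (0 of 6), red cells (0 of 2) and endothelium (0 of 5) stayed at noise, and so did 4 of 5 fibroblast markers, the exception being the matrix protein gene LUM. MITF was the only melanocyte marker above noise, of 4, and of 3 prostate markers KLK3 passed 5 on 1 array.

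Cycling hypoxia changed 1770 of 19800 probe sets kept by a filter on variation (8.94%), 1150 higher (5.81%) and 620 lower (3.13%), at an adjusted p under 0.05 and a change of at least 2-fold (limma's moderated test, Benjamini-Hochberg adjustment). They belonged to 726 genes that were higher, 418 that were lower and 1 with probe sets in both directions. Large changes went mostly upward: 213 probe sets were at least 4-fold higher and 43 at least 4-fold lower, and 45 and 11 passed 8-fold. Of the higher probe sets 285 were at noise in all control arrays, of the lower ones 133 were at noise in all arrays of cycling hypoxia, and 155 were at noise in both groups, so that their folds are bounds or carry no size. At an adjusted p under 0.05 without the fold threshold, 3454 probe sets were higher and 2853 lower.

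**Figure D1:**
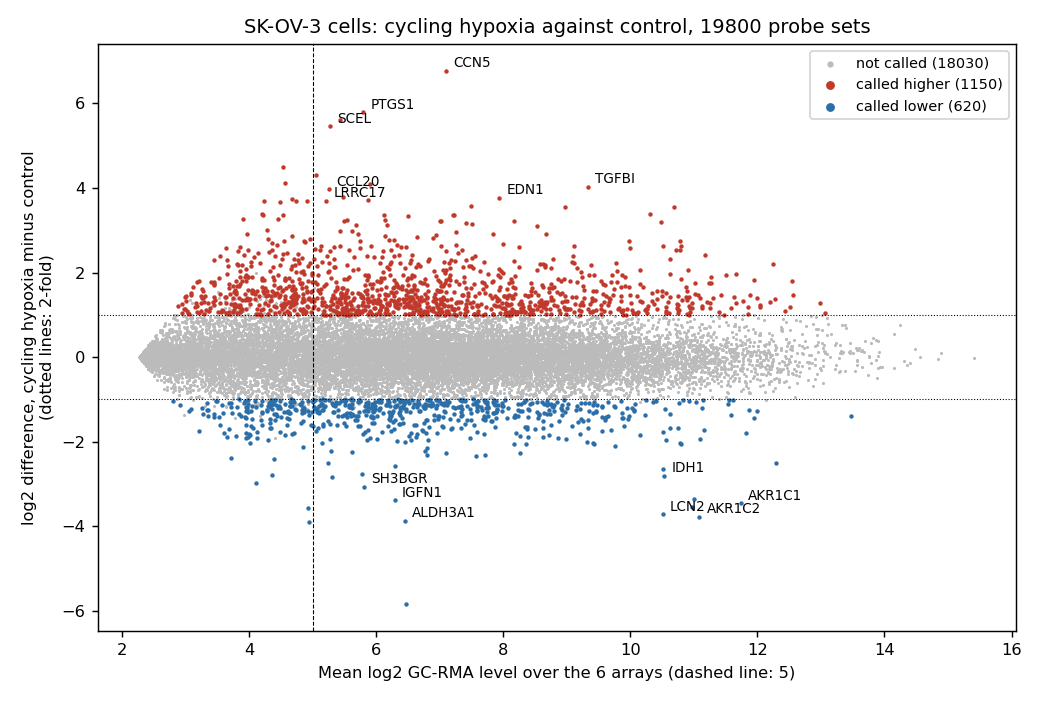
Log2 difference between cycling hypoxia and control (vertical axis) against the mean log2 GC-RMA level over the 6 SK-OV-3 arrays (horizontal axis), 1 point per probe set. The 1150 probe sets called higher reach further from 0 than the 620 called lower; the lowest point is a probe set annotated to both AKR1C2 and AKR1C1, which names no single gene.

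CCN5, a matricellular protein, stood at 10.63, 10.45 and 10.40 on the cycling hypoxia arrays, against 3.30, 3.91 and 3.94 on the control arrays. It was thus at noise in every control array and bright in every array of cycling hypoxia, at least 45.0-fold higher (log2 difference 6.78, standard error 0.20, adjusted p = 0.000247). PTGS1, cyclooxygenase 1 of prostaglandin synthesis, had 8.81, 8.73 and 8.55 under cycling hypoxia, against 2.69, 3.34 and 2.68 in control cells, at least 13-fold higher (adjusted p = 0.000328). SCEL, sciellin, a precursor protein of the cornified envelope of epithelia, was at least 8.02-fold higher, and the chemokine CCL20 at least 4.71-fold. The groups did not overlap for any of these genes, which were picked for their large changes between the same arrays.

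TGFBI, a matrix protein that TGF-beta induces, was above noise in both groups. It measured 11.58, 11.38 and 11.10 under cycling hypoxia, against 7.07, 7.18 and 7.71 in control cells (log2 difference 4.03, standard error 0.22, adjusted p = 0.000581). F3, tissue factor, the cell surface starter of blood clotting, measured 12.55, 12.45 and 12.41 under cycling hypoxia, against 8.91, 8.65 and 9.18 in control cells (log2 difference 3.56, adjusted p = 0.000393). The spread between arrays of a group was a small part of these differences. The vasoconstrictor endothelin 1, EDN1, rose by 3.77 (log2, standard error 0.13), the collagen cross-linking enzyme LOXL2 by 3.56, the kinase scaffold AKAP12 by 3.36, SYTL2, a protein of vesicle traffic, by 3.36 and the glycolytic aldolase ALDOC by 3.33. NT5E, the enzyme that makes adenosine outside the cell, was at least 4.48-fold higher, LRRC17 at least 4.17-fold and the uncharacterized LOC151760 at least 4.29-fold. Another probe set of SYTL2 had a log2 difference of 0.34 and did not pass the test.

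ALDH3A1, an aldehyde dehydrogenase, measured 4.41, 4.24 and 4.89 under cycling hypoxia, all at noise, against 8.0, 8.24 and 8.94 in control cells, at least 10.5-fold lower (adjusted p = 0.00132). LCN2, lipocalin 2, which binds iron-carrying siderophores, measured 8.46, 8.59 and 8.89 under cycling hypoxia, against 12.29, 12.35 and 12.47 in control cells (log2 difference -3.72, standard error 0.13, adjusted p = 0.000287). IDH1, the cytosolic isocitrate dehydrogenase, a source of NADPH, measured 9.03, 9.16 and 9.19 under cycling hypoxia, against 11.93, 11.95 and 11.93 in control cells (log2 difference -2.81, standard error 0.05, adjusted p = 0.000121). The IDH1 arrays of a group lay close together, and the groups were far apart. The aldo-keto reductases AKR1C2, AKR1C1 and AKR1C3 had log2 differences of -3.78, -3.46 and -2.52, and since these paralogs are nearly identical, their probes may read each other's transcripts. DEFB1, a beta-defensin, was at least 4.46-fold lower, IGFN1 at least 7.93-fold and SH3BGR at least 5.11-fold. The carboxylesterase CES1 fell by 2.35 (log2), the nucleoside transporter SLC29A3 by 2.23, the fatty acid desaturase SCD by 2.16 and BBLN by 2.05. The kinase subunit PIK3R3 and HGD, an enzyme of tyrosine breakdown, had -2.57 and -2.33, while another probe set of each did not pass the test, at -0.78 and -0.51.

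**Figure D2:**
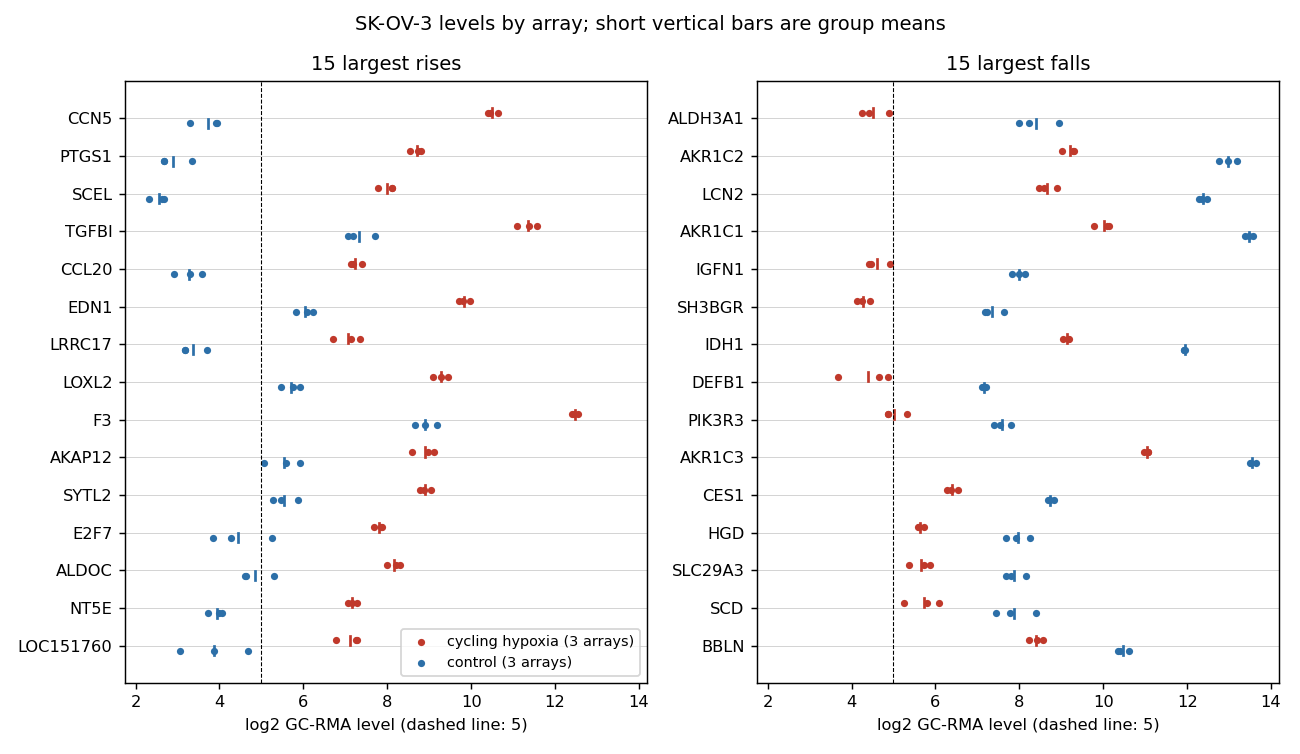
Log2 GC-RMA levels (horizontal axis) of the 15 genes with the largest rises and the 15 with the largest falls, 1 point per array, with cycling hypoxia above control in each row and short bars for group means. In no row do the groups overlap, but the genes were picked for large changes between these same arrays, so this is not a separate result. The arrays of cycling hypoxia lie below the dashed noise level for ALDH3A1, IGFN1, SH3BGR and DEFB1.

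In addition, 37 lists of genes were read, each gene by its brightest probe set. Of all 10021 genes read in this way, 1980 rose (19.8%) and 1672 fell (16.7%) at an adjusted p under 0.05, and the median log2 difference was 0.01; these are the values against which the counts of a list can be read. No test of a list as a whole was made.

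**Figure D3:**
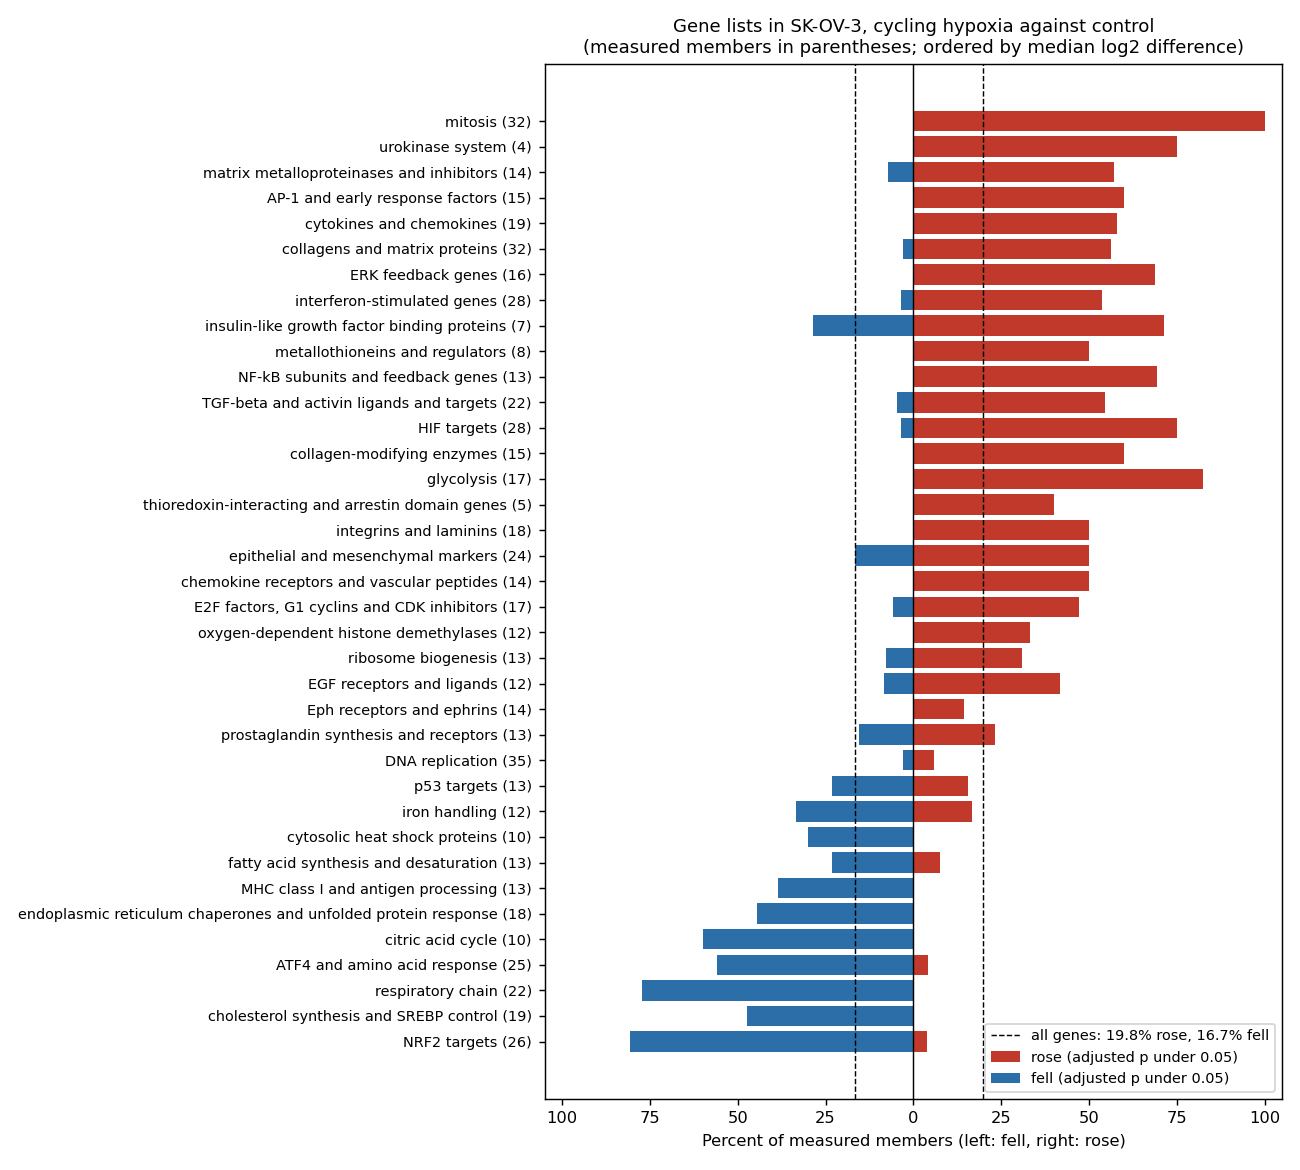
Percent of the measured members of 37 gene lists that rose (right) or fell (left) under cycling hypoxia at an adjusted p under 0.05, ordered by the median log2 difference, with dashed lines at the 19.8% and 16.7% of all genes. Mitosis stands at the top with 32 of 32 members rising, and NRF2 targets at the bottom with 21 of 26 falling.

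Genes of mitosis were the list with the most uniform rise. All 32 measured members rose, 30 of them at least 2-fold, with a median log2 difference of 1.59, against 19.8% of all genes. Compared with chronic hypoxia, 5 of the 32 were higher and none lower with cycling hypoxia (15.6% and 13.3% of all genes). The median of that difference was 0.33. FAM83D, a protein of the mitotic spindle, measured 8.65, 8.69 and 8.42 under cycling hypoxia, against 5.30, 5.94 and 6.53 in control cells (log2 difference 2.66, standard error 0.33, adjusted p = 0.00432). MKI67, the source of the Ki-67 proliferation antigen, measured 8.35, 8.47 and 7.82 under cycling hypoxia, against 5.96, 6.18 and 6.18 in control cells (log2 difference 2.11, standard error 0.19, adjusted p = 0.00189). UBE2C, a ubiquitin-conjugating enzyme that helps end mitosis, and ANLN, a scaffold of the cleavage furrow, had log2 differences of 2.19 and 2.14. The kinetochore motor CENPE was at noise in control cells and at least 2.88-fold higher under cycling hypoxia. The smallest change of the list was that of TOP2A, a DNA topoisomerase, at 0.89 (adjusted p = 0.00688). These are RNA levels and do not count dividing cells. The study reported, without showing the data, that flow cytometry found no cell cycle difference from control under either form of hypoxia.

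Genes of DNA replication did not move in this way. Of 35 measured members 2 rose and 1 fell, with a median of 0.06, and 32 did not pass the test; without cycling replicate 2, 1 rose. MCM2, a subunit of the replicative helicase, measured 7.77, 8.13 and 7.79 under cycling hypoxia, against 7.84, 7.89 and 8.40 in control cells, so that the groups overlapped (log2 difference -0.14, standard error 0.19, adjusted p = 0.628). CDC6, which loads the helicase, had -1.16 (standard error 0.36, adjusted p = 0.0675; at another probe set -1.05, adjusted p = 0.0335; without cycling replicate 2 -1.47, adjusted p = 0.0379), and the sliding clamp PCNA fell by 0.58 (adjusted p = 0.0337). The call of PCNA was lost without control replicate 2, control replicate 3, cycling replicate 2 or cycling replicate 3 (adjusted p from 0.0832 to 0.0971). Among cell cycle regulators, E2F7, a repressor of the E2F family, rose by 3.35 (standard error 0.38, adjusted p = 0.00337) and cyclin D1, CCND1, by 1.01 (adjusted p = 0.00253). The list of E2F factors, G1 cyclins and CDK inhibitors held 8 rising members of 17, 1 of them at noise in both groups, and 1 falling member. A second probe set of E2F7, at 0.74, did not pass the test.

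Promoters of both lists were read from RefSeq (GRCh38.p14) over the 250 bases before the start site, which were at hand for 8129 of the 10021 genes. The letters TTTGAA, on either strand, as found in the cell cycle homology region of many mitotic genes, stood in 61.5% of the 26 mitosis promoters read, in none of the 30 replication promoters and in 8.71% of all 8129. The letters CCAAT, often found beside them, stood in 76.9%, 60.0% and 35.0%. Both motifs were chosen after the values of the lists were known, and a match is only a match of letters. The promoters of 3 rising mitosis genes are shown with 20 bases on each side of the matches, which are in capitals:
MKI67 (chr10:128126427-128126490, minus strand): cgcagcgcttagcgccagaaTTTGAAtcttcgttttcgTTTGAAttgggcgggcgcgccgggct
DLGAP5 (chr14:55191669-55191743, minus strand): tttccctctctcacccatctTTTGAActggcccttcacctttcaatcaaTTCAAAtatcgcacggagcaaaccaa
PLK1 (chr16:23678840-23678885, plus strand): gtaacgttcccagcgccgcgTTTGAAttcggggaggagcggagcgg
DLGAP5, a spindle protein, rose by 2.04 (log2, adjusted p = 0.00208) and PLK1, a kinase of mitotic entry, by 1.58 (adjusted p = 0.00328). In PLK1 the match starts 29 bases before the start site, and in MKI67 the matches start 47 and 29 bases before it.

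Targets of NRF2 fell. Of 26 measured members 21 fell, 14 of them at least 2-fold and 2 at noise in both groups, and 1 rose. The median log2 difference of the list was -1.18, and 16.7% of all genes fell. The list holds the genes with the largest falls named above, ALDH3A1 and the aldo-keto reductases. NQO1, a quinone reductase, measured 10.95, 10.92 and 10.91 under cycling hypoxia, against 12.69, 12.84 and 12.60 in control cells (log2 difference -1.79, standard error 0.07, adjusted p = 0.000358). PGD, an enzyme of the pentose phosphate pathway that yields NADPH, measured 9.90, 9.85 and 9.57 under cycling hypoxia, against 11.65, 12.00 and 11.81 in control cells (log2 difference -2.05, adjusted p = 0.000826). EPHX1, an epoxide hydrolase, fell by 2.03. Both subunits of the rate-limiting enzyme of glutathione synthesis were lower, GCLC by 1.44 and GCLM by 1.23, and so were malic enzyme, ME1, by 1.73, and thioredoxin reductase TXNRD1, by 0.85. HMOX1, heme oxygenase 1, was at noise on all arrays of cycling hypoxia, at least 3.59-fold lower (adjusted p = 0.00143). The cystine transporter SLC7A11, a target shared with ATF4, stood at 12.04 under cycling hypoxia and 12.05 in control cells (adjusted p = 0.998). GSTM3, a glutathione transferase, rose by 0.73 (adjusted p = 0.0169), a call lost without any 1 of the 3 cycling hypoxia arrays (adjusted p from 0.0536 to 0.0586), when no member of the list rose.

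The core letters of the antioxidant response element, TGACNNNGC on either strand, stood in 31.2% of the 16 promoters read of NRF2 targets that fell and in 12.3% of all 8129. Shown are 3 of those that hold it, with the match in capitals:
GCLM (chr1:93909436-93909484, minus strand): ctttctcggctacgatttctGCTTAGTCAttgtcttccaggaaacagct
ME1 (chr6:83431160-83431208, minus strand): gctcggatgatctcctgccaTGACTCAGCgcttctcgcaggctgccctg
TXNRD1 (chr12:104215660-104215708, plus strand): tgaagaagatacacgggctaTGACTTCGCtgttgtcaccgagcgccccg
The match in GCLM reads on the opposite strand. That in ME1 also spells TGACTCA, the letters TGANTCA of AP-1, so that both motifs overlap there.

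Targets of HIF rose, by less than under chronic hypoxia. Of 28 measured members 21 rose and 1 fell, with a median of 0.65, and 14 of 17 measured glycolysis genes rose and none fell, with a median of 0.60 (19.8% of all genes rose). P4HA1, a collagen prolyl hydroxylase, measured 10.73, 10.61 and 10.69 under cycling hypoxia, against 8.79, 9.09 and 8.83 in control cells (log2 difference 1.78, standard error 0.09, adjusted p = 0.000556). PDK1, a kinase that inhibits pyruvate dehydrogenase, measured 8.64, 8.44 and 8.39 under cycling hypoxia, against 6.65, 6.89 and 7.07 in control cells (log2 difference 1.62, adjusted p = 0.00137). Another probe set of PDK1, at 0.01, did not pass the test. PGK1, a glycolytic kinase, rose by 1.05 and the membrane protein gene TMEM45A by 2.12. VEGFA, the main growth factor of blood vessels, rose by 0.35 (adjusted p = 0.0408), and the glucose transporter SLC2A1 by 0.23 (adjusted p = 0.049). Both small rises lost their calls in 5 of the 6 fits that left out 1 array, with adjusted p from 0.059 to 0.111 for VEGFA and from 0.108 to 0.125 for SLC2A1. EGLN1, the oxygen-sensing prolyl hydroxylase itself, was the member that fell, by 0.40 (adjusted p = 0.00356). Other probe sets of PGK1 (0.92), SLC2A1 (0.01) and EGLN1 (-0.26 and -0.34) did not pass the test.

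Set beside the chronic hypoxia arrays of the same cells, which share the control with cycling hypoxia, HIF targets were lower under cycling hypoxia. Of 1377 probe sets (6.95%) that differed at least 2-fold between cycling and chronic hypoxia, 665 were higher and 712 lower under cycling hypoxia. Read by gene, 24 of 28 HIF targets had lower levels with cycling than with chronic hypoxia and none had higher ones, where 13.3% of all genes were lower and 15.6% higher at an adjusted p under 0.05. The hormone gene STC1 stood at 7.77 ± 0.16 in cycling hypoxia, 11.50 in chronic hypoxia and 6.20 ± 0.08 in the control (SD, n = 3 each). ANGPTL4, a secreted regulator of lipid use, stood at 5.48 ± 0.08 in cycling hypoxia, 10.04 in chronic hypoxia and at noise in the control. The call of ANGPTL4 against control was lost without any 1 of the cycling hypoxia arrays (adjusted p from 0.0553 to 0.0625), and another probe set, at 0.79, did not pass the test. Of 26 NRF2 targets 6 were higher and 3 lower with cycling than with chronic hypoxia. NQO1 was higher by 0.52 (log2, adjusted p = 0.00708) and AKR1C3 lower by 0.55 (adjusted p = 0.0288). Outside that list, LCN2 stood at 8.65 in cycling hypoxia, 8.70 in chronic hypoxia and 12.37 in the control, and the direct comparison of the forms of hypoxia gave an adjusted p of 0.94.

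**Figure D4:**
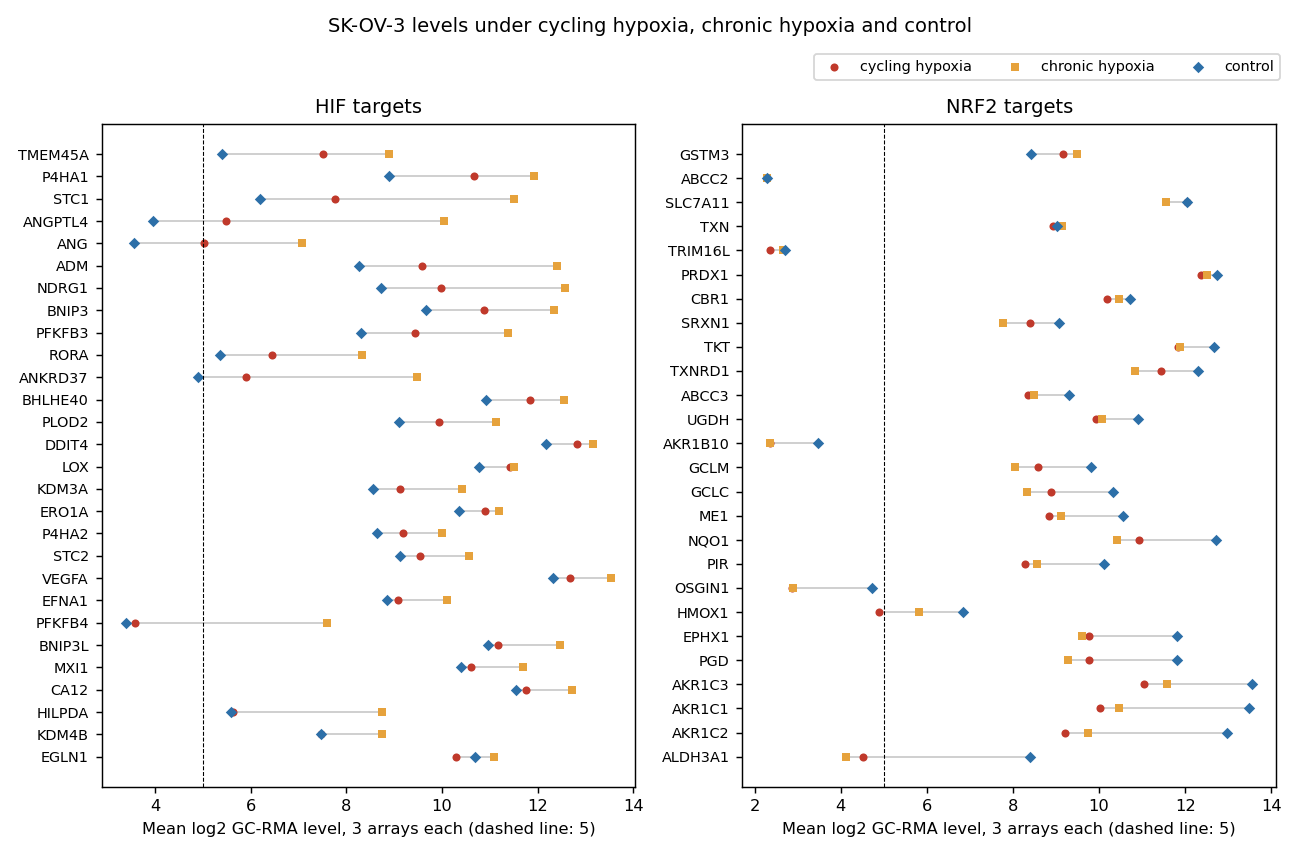
Mean log2 GC-RMA levels (horizontal axis) of HIF targets (left) and NRF2 targets (right) in SK-OV-3 cells, with points for cycling hypoxia, chronic hypoxia and control, 3 arrays each. For the HIF target STC1 the cycling mean, 7.77, lies between the chronic mean, 11.50, and the control mean, 6.20, while for the NRF2 target NQO1 the means of cycling and chronic hypoxia, 10.92 and 10.41, both lie below the control, 12.71.

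The core letters of the hypoxia response element, ACGTG on either strand, stood in 9 of the 18 promoters read of HIF targets that rose, in 42.9% of the 14 of glycolysis genes that rose and in 23.2% of all 8129. In the promoters of all genes called higher it was 22.6%, and of all genes called lower 22.2%. Shown are 3 promoters with the matches in capitals, where CACGTG holds a match on each strand:
P4HA1 (chr10:73096928-73096972, minus strand): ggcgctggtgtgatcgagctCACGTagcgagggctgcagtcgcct
ANKRD37 (chr4:185396659-185396722, plus strand): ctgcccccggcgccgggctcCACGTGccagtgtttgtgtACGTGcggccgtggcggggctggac
ALDOC (chr17:28576899-28577145, minus strand): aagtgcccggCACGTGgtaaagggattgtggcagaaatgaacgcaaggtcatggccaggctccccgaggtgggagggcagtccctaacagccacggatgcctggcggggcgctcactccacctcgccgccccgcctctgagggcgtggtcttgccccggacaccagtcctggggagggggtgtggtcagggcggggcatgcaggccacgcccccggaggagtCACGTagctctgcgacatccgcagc
ANKRD37, an ankyrin repeat protein, stood at 5.90 ± 0.02 in cycling hypoxia, 9.47 in chronic hypoxia and 4.89 ± 0.14 in the control. ALDOC, in contrast, stood at 8.17 ± 0.16 in cycling hypoxia, 8.52 in chronic hypoxia and 4.84 ± 0.40 in the control (cycling against chronic, adjusted p = 0.0826).

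Of 19 measured cytokines and chemokines 11 rose, each at least 2-fold and 1 of them at noise in both groups, and none fell, with a median of 1.09. CXCL8 (interleukin 8), which attracts neutrophils, measured 12.10, 12.09 and 12.17 under cycling hypoxia, against 9.56, 9.17 and 9.73 in control cells (log2 difference 2.64, standard error 0.15, adjusted p = 0.000687). KITLG, the ligand of the receptor KIT, was at noise in control cells and at least 2.12-fold higher under cycling hypoxia, although another probe set, at 0.42, did not pass the test. TNFSF10, the death ligand TRAIL, rose by 2.25 and the cytokine IL32 by 2.12. The alarm cytokine IL1A rose by 1.44 (adjusted p = 0.0111) and CXCL1 by 1.16 (adjusted p = 0.00661). CXCL2 was read by 2 probe sets: the brighter had 1.08 (standard error 0.28, adjusted p = 0.0412), the dimmer 1.18 (standard error 0.59, adjusted p = 0.2), and the call of the brighter was lost in 5 of the 6 fits that left out 1 array (adjusted p from 0.0501 to 0.12). Set against chronic hypoxia, 8 of the 19 cytokines were higher and 3 lower with cycling hypoxia (15.6% and 13.3% of all genes). CXCL8 was higher by 1.89 (log2, adjusted p = 0.000864), TNFSF10 was lower by 0.89 (adjusted p = 0.0272), and CCL20 had 0.10 (adjusted p = 0.584). Among NF-kB subunits and feedback genes 9 of 13 rose and none fell. They included IRAK2, a kinase of interleukin 1 signalling, which was at least 4.17-fold higher, TNFAIP3, an inhibitor of NF-kB, which rose by 1.27 (adjusted p = 0.00735), and the subunit RELA, by 0.46. In promoters of the 10 cytokines that rose and could be read, the NF-kB letters GGG and CC with 5 bases between them, on either strand, stood in 70.0% and the AP-1 letters TGANTCA in 30.0%, against 69.1% and 3.90% of all 8129. Shown are CXCL8 with its AP-1 match and CXCL1 and CCL20 with their NF-kB matches in capitals, where overlapping matches run together:
CXCL8 (chr4:73740412-73740458, plus strand): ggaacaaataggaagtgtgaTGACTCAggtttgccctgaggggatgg
CXCL1 (chr4:73869245-73869344, plus strand): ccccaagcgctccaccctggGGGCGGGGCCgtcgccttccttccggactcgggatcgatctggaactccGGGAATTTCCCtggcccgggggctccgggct
CCL20 (chr2:227813615-227813841, plus strand): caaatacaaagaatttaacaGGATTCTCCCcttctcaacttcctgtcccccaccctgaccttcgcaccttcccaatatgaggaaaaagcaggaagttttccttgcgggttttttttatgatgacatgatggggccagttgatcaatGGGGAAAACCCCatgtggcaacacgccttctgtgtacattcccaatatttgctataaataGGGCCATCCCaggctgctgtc

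Of 12 EGF ligands, receptors and regulators 5 rose, 1 of them at noise in both groups, 1 fell and 6 did not pass the test, with a median of 0.20. Without cycling replicate 2 the number that fell was 2. HBEGF, a ligand of the EGF receptor, measured 6.79, 6.94 and 6.58 under cycling hypoxia, against 4.60, 4.70 and 4.73 in control cells, at least 3.40-fold higher (adjusted p = 0.000506). EREG, epiregulin, another ligand, measured 7.99, 7.80 and 7.55 under cycling hypoxia, against 6.57, 6.52 and 6.94 in control cells (log2 difference 1.10, standard error 0.16, adjusted p = 0.00756). Betacellulin, BTC, fell by 1.73 (adjusted p = 0.0122), and the receptor gene EGFR stood at 9.47 in both groups. Of 16 ERK feedback genes 11 rose and none fell, with a median of 0.83, among them the phosphatases DUSP1 (1.97), DUSP7 (1.51) and DUSP6 (1.43) and the inhibitor SPRY4 (1.77). Against chronic hypoxia 10 of these 16 were higher and 1 lower under cycling hypoxia, and of the 12 EGF genes 4 were higher and 3 lower. EREG stood at 7.78 ± 0.22 in cycling hypoxia, 3.01 ± 0.43 in chronic hypoxia and 6.68 ± 0.23 in the control (SD, n = 3 each; cycling against chronic, adjusted p = 0.00126). HBEGF stood at 6.77 ± 0.18 in cycling hypoxia, 4.58 ± 0.25 in chronic hypoxia and 4.67 ± 0.07 in the control (cycling against chronic, adjusted p = 0.00216).

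Early response factors rose in 9 of 15 cases, and none fell (median 1.16). FOS, a subunit of AP-1, measured 11.82, 11.60 and 10.65 under cycling hypoxia, against 8.46, 8.56 and 8.79 in control cells (log2 difference 2.75, standard error 0.33, adjusted p = 0.00413). The third array of cycling hypoxia was the lowest for FOS and still lay above all control arrays. FOSL1, another AP-1 subunit, rose by 2.33, JUNB by 1.78, the factor KLF6 by 1.62 (another probe set, at 0.80, did not pass) and MYC by 1.41. EGR1, an early growth response factor, had 0.54 (adjusted p = 0.069) at its brightest probe set and 1.30 (adjusted p = 0.00865) at another. EPHA2, an ephrin receptor, measured 9.66, 9.85 and 9.65 under cycling hypoxia, against 7.64, 7.54 and 7.58 in control cells (log2 difference 2.13, standard error 0.07, adjusted p = 0.000276). The ephrin EFNB2 rose by 1.32 (adjusted p = 0.000821), and the other 12 measured members of that family did not pass the test. The share of the family that rose, 14.3%, was below the 19.8% of all genes. Without cycling replicate 1, 4 members rose.

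Proteases and matrix genes rose. PLAU, urokinase, which activates plasmin, measured 12.01, 12.11 and 11.67 under cycling hypoxia, against 9.97, 9.93 and 9.72 in control cells (log2 difference 2.05, standard error 0.14, adjusted p = 0.000968), and its receptor PLAUR rose by 1.94. Of 14 matrix metalloproteinases, related proteases and inhibitors 8 rose, each at least 2-fold, and the inhibitor TIMP2 fell by 0.42. MMP7, matrilysin, measured 9.45, 9.38 and 9.05 under cycling hypoxia, against 6.58, 5.93 and 6.61 in control cells (log2 difference 2.92, standard error 0.23, adjusted p = 0.00128). The collagenase MMP1 rose by 2.74, the stromelysin MMP10 by 2.63 and the gelatinase MMP2 by 2.39. Of 32 collagens and matrix proteins 18 rose, 16 of them at least 2-fold and 1 at noise in both groups, and 1 fell, with a median of 0.99. Compared with chronic hypoxia, 1 of the 32 was higher and 10 were lower with cycling hypoxia (15.6% and 13.3% of all genes). THBS1, thrombospondin 1, measured 9.73, 9.83 and 9.78 under cycling hypoxia, against 6.66, 6.53 and 6.49 in control cells (log2 difference 3.22, standard error 0.06, adjusted p = 0.000121). Other probe sets of THBS1 had log2 differences of 2.48, 2.97 and 3.16, which passed the test, and of 0.25, 0.03 and -0.01, which did not. COL5A1, a fibrillar collagen, rose by 2.58, and COL8A1 was at least 3.79-fold higher (a second probe set, at 0.15, did not pass the test). Fibronectin, FN1, had -0.26 (adjusted p = 0.157) at its brightest probe set, while another, at -0.29, passed the test (adjusted p = 0.0221). COL12A1 fell by 0.29 (adjusted p = 0.03), a call lost in 4 of the 6 fits that left out 1 array (adjusted p from 0.0758 to 0.0908). Of 15 collagen-modifying enzymes 9 rose and none fell, with the lysyl hydroxylase PLOD1 at 1.89 after LOXL2.

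Adhesion genes rose with them: 9 of 18 integrins and laminins rose and none fell, among them the integrin subunits ITGB4 (2.40), ITGB3 (1.81) and ITGA5 (1.64). Other probe sets of ITGB3, at 1.03, 0.19 and 0.22, did not pass the test. Of 24 epithelial and mesenchymal markers 12 rose and 4 fell, where 19.8% of all genes rose and 16.7% fell. The share of these markers that fell, 16.7%, was thus no larger than that of all genes, and none fell at least 2-fold. The repressor SNAI2 rose by 1.84 (adjusted p = 0.00123), the keratins KRT7 (another probe set, at 1.28, did not pass) and KRT19 by 1.65 and 1.46, and the splicing factor of epithelia ESRP1 fell by 0.99 (adjusted p = 0.00792). E-cadherin, CDH1, had -0.45 (adjusted p = 0.0527). It passed the test in the fits of 9 and 27 arrays (adjusted p = 0.0268 and 0.00706) and with dim probe sets left out (0.0232). After quantile normalization (0.049) and with a block for replicate number (0.0294) it passed too, but in none of the fits that left out 1 array. Of 22 TGF-beta and activin genes 12 rose and 1, at noise in both groups, fell; without any 1 of the control arrays or cycling replicate 2 the number that fell was 0. Those that rose include LTBP3, a carrier of latent TGF-beta (1.98), the activin inhibitor FSTL3 (1.46) and TGFB1 itself (1.27, adjusted p = 0.00103). Among 7 binding proteins of insulin-like growth factors 5 rose, IGFBP5 by 1.89 (adjusted p = 0.00729), and 2 fell, 1 of them at noise in both groups. Without any 1 of the cycling hypoxia arrays 3 rose, and without control replicate 2 or 3 or cycling replicate 2, 1 fell. Other probe sets of IGFBP5 had 0.09 and 0.09 and did not pass the test. IGFBP1 measured 4.04, 4.34 and 4.14 under cycling hypoxia, against 5.91, 5.77 and 6.11 in control cells, at least 1.91-fold lower. Of 14 chemokine receptors and vascular peptides 7 rose and none fell; the chemokine receptor CXCR4, at noise in both groups, stood at 3.71 in cycling hypoxia, 10.32 in chronic hypoxia and 2.28 in the control.

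Interferon-stimulated genes rose in 15 of 28 cases, 1 of them at noise in both groups, and 1 fell (median 0.77). Without cycling replicate 1 the number that rose was 9. IFIT1, which binds foreign RNA, measured 8.50, 8.58 and 8.93 under cycling hypoxia, against 7.54, 7.03 and 7.72 in control cells (log2 difference 1.24, standard error 0.22, adjusted p = 0.0127). OAS2, an RNA-sensing synthetase, measured 6.07, 6.05 and 6.10 under cycling hypoxia, against 4.90, 5.15 and 5.16 in control cells (log2 difference 1.00, adjusted p = 0.00145). Both groups were apart for these genes, while the larger changes of IFI44 (1.62), OAS3 (1.60) and OAS1 (1.42) lost their calls in some of the fits that left out 1 array, with adjusted p up to 0.087, 0.1 and 0.0587. Second probe sets of IFI44, OAS3 and OAS2 had 0.12, 0.59 and 0.50 and did not pass the test. Under chronic hypoxia the list was higher still: 21 of 28 members had lower levels with cycling hypoxia than with chronic hypoxia, and 1 had a higher level. OAS2 stood at 6.07 in cycling hypoxia, 8.38 ± 0.12 in chronic hypoxia and 5.07 in the control. IFI35 was the member that fell, by 1.06 (adjusted p = 0.00336).

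Of 22 measured subunits of the respiratory chain 17 fell and none rose, with a median of -0.43, and without cycling replicate 3 the number was 11. COX7B, a subunit of cytochrome c oxidase, measured 10.60, 10.57 and 10.40 under cycling hypoxia, against 11.63, 11.76 and 11.79 in control cells (log2 difference -1.20, standard error 0.08, adjusted p = 0.000876). It was the only one of these subunits that fell at least 2-fold. In the citric acid cycle 6 of 10 genes fell and none rose, SDHD of succinate dehydrogenase by 0.63 (adjusted p = 0.00594). Of 19 genes of cholesterol synthesis and its SREBP control 9 fell and none rose. Among them, INSIG1, which holds SREBP back, measured 5.96, 5.75 and 5.78 under cycling hypoxia, against 7.78, 7.98 and 7.63 in control cells (log2 difference -1.97, standard error 0.11, adjusted p = 0.000666). SREBF1, the gene of SREBP-1, fell by 1.48 (adjusted p = 0.00802), and of 13 fatty acid genes 3 fell, SCD by 2.10 at its brightest probe set, and 1 rose (16.7% and 19.8% of all genes). Among iron genes CP, the ferroxidase ceruloplasmin, rose by 2.41 (adjusted p = 0.000521) and FTL, the ferritin light chain, fell by 1.38 (adjusted p = 0.000947). Of 12 measured iron genes 2 rose (16.7%) and 4 fell (33.3%), where 19.8% of all genes rose and 16.7% fell.

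ATF4 targets fell in 14 of 25 cases, and 1 rose (median -0.31); the number that rose was 0 to 2 with 1 array left out. CTH, an enzyme of cysteine synthesis, measured 9.45, 9.48 and 9.64 under cycling hypoxia, against 10.72, 10.41 and 10.78 in control cells (log2 difference -1.11, standard error 0.12, adjusted p = 0.00296). The stress factor DDIT3 fell by 0.74 (adjusted p = 0.00205), a call lost in the fits of 9 arrays (adjusted p = 0.0811) and of 27 arrays (adjusted p = 0.0691). Set against chronic hypoxia, 9 of the 25 were higher and 2 lower with cycling hypoxia. DDIT3 was at 10.26 ± 0.04 in cycling hypoxia, 8.51 ± 0.60 in chronic hypoxia and 10.99 ± 0.11 in the control. Of 18 chaperones and folding genes of the endoplasmic reticulum 8 fell and none rose, among them HYOU1 (-1.04) and HSPA5, the main chaperone there (-0.48, adjusted p = 0.00226; another probe set, at -0.41, did not pass). With all 9 SK-OV-3 arrays in 1 fit, 6 ATF4 targets fell.

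To see where SK-OV-3 cells differed from the other cell lines, the response to cycling hypoxia in SK-OV-3 cells was compared with that in PC-3 and in WM793B cells by a test of the difference of responses in 1 fit of 18 arrays. The response differed by at least 1 on the log2 scale for 3133 probe sets against PC-3 (15.8%, 1738 of them positive and 1395 negative) and for 2887 against WM793B (14.6%, 1855 positive and 1032 negative). Read by gene at an adjusted p under 0.05, 23.4% of all genes had a positive and 17.9% a negative difference against PC-3, and 21.3% and 17.9% against WM793B. The SK-OV-3 arrays enter both comparisons. Counts of genes that rose or fell in PC-3 and WM793B cells come from this fit of 18 arrays. Those in SK-OV-3 cells come from the smaller fit of SK-OV-3 arrays alone. The larger fit can call smaller changes, so these counts cannot be compared directly between lines. The differences of responses all come from the 18-array fit.

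The mitosis genes differed in all 32 cases, each with a higher response in SK-OV-3 than in PC-3 and than in WM793B cells. MKI67 had log2 differences between cycling hypoxia and control of 2.11 in SK-OV-3, 0.22 in PC-3 and 0.11 in WM793B cells, and the differences of responses were 1.89 (standard error 0.28, adjusted p = 8.45e-05) and 1.99 (adjusted p = 5.43e-05). Of these 32 genes none rose and 1 fell in PC-3 cells, and none rose and 6 fell in WM793B cells, where 19.4% and 15.1% of all genes rose and 23.3% and 15.7% fell. DNA replication genes showed another order. They fell in the other lines in the 18-array fit, 27 of 35 in PC-3 and 29 of 35 in WM793B cells. In SK-OV-3 cells 1 fell, in the smaller fit. The median log2 differences were -0.77 in PC-3, -1.07 in WM793B and 0.06 in SK-OV-3 cells. The differences of responses were positive for 23 and 25 and negative for none. MCM2 had -0.14 in SK-OV-3, -1.07 in PC-3 and -1.03 in WM793B cells (differences of responses 0.93 and 0.89, adjusted p = 0.00368 and 0.00535).

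NRF2 targets had a lower response in SK-OV-3 cells for 19 of 26 genes against PC-3 and 23 of 26 against WM793B, and a higher one for none and for 1. GCLM had log2 differences of -1.23 in SK-OV-3, 0.67 in PC-3 and 0.82 in WM793B cells (differences of responses -1.90 and -2.05, adjusted p = 6.41e-08 and 4.06e-08). ATF4 targets rose in the other lines, 19 of 25 in PC-3 and 14 of 25 in WM793B cells, and their differences of responses were negative for 22 and 16. CTH had -1.11 in SK-OV-3, 2.29 in PC-3 and 0.70 in WM793B cells. Chaperones of the endoplasmic reticulum had negative differences for 15 of 18 genes against each line.

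In PC-3 cells 23 of 28 interferon-stimulated genes fell, and the difference of responses was positive for 24 and negative for 2. IFIT1 had 1.24 in SK-OV-3, -2.16 in PC-3 and 0.13 in WM793B cells (difference against PC-3 3.40, standard error 0.31, adjusted p = 7.71e-07). Against WM793B 19 were positive and none negative. Cytokines set SK-OV-3 cells apart from WM793B cells, with 13 of 19 differences positive and none negative. Against PC-3 cells 4 of the 19 were positive and 4 negative, near the 23.4% and 17.9% of all genes. CXCL8 had 2.64 in SK-OV-3, 2.33 in PC-3 and -0.18 in WM793B cells. For HIF targets 4 of 28 differences were positive and 9 negative against PC-3, where 23.4% and 17.9% of all genes were. Against WM793B 7 were positive and 5 negative, near the 21.3% and 17.9% of all genes. Collagens and matrix proteins had a higher response in SK-OV-3 cells for 18 of 32 genes against PC-3 and 17 against WM793B, and a lower one for 3 and 2. MMP7 moved by 2.92 in SK-OV-3, 0.02 in PC-3 and -0.01 in WM793B cells.

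**Figure D5:**
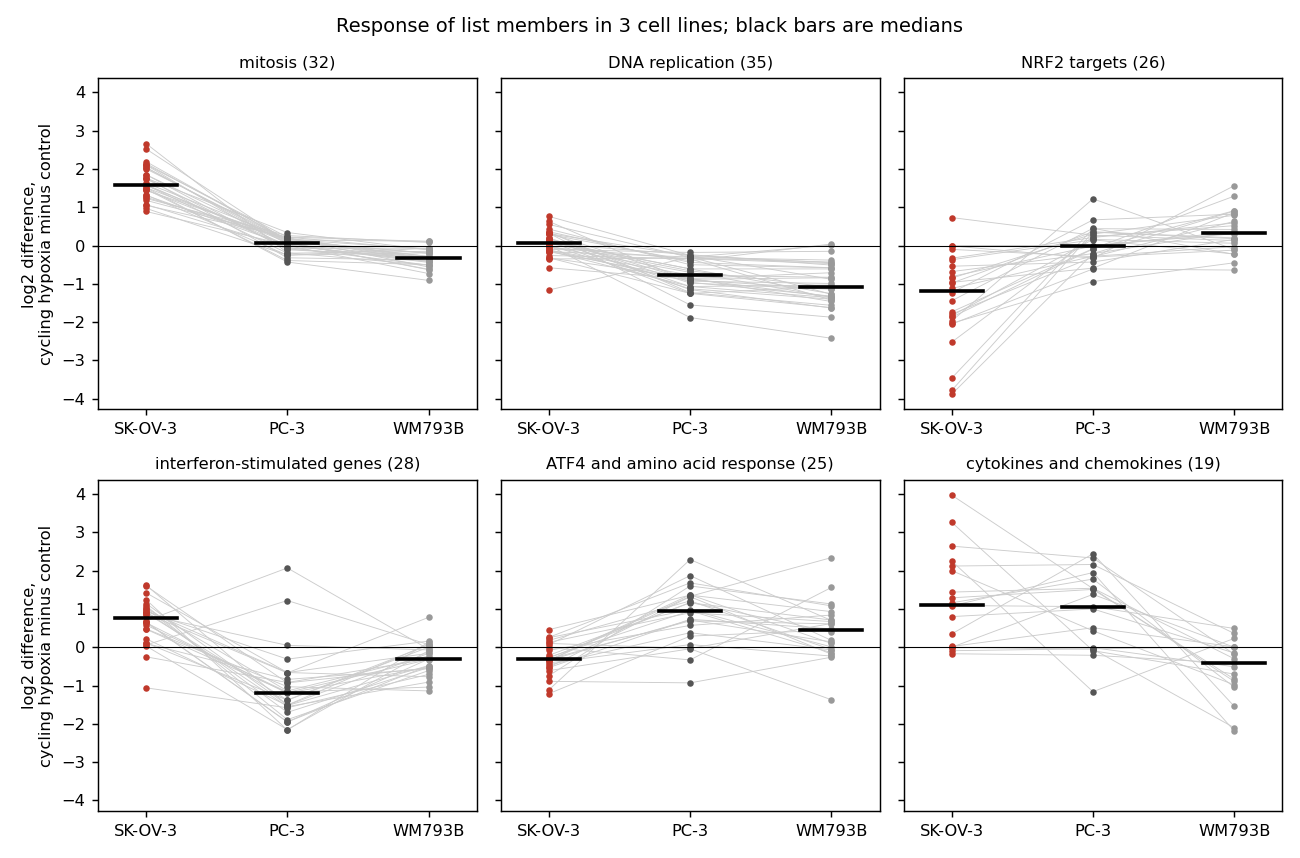
Log2 difference between cycling hypoxia and control (vertical axis) of the measured members of 6 gene lists in SK-OV-3, PC-3 and WM793B cells, 1 point per gene, with lines joining a gene and black bars for medians. The median of the mitosis genes is 1.59 in SK-OV-3, 0.06 in PC-3 and -0.33 in WM793B cells, and that of the NRF2 targets -1.18, -0.01 and 0.34.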

How the data were processed

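RNA of cultured cells was hybridised to Human Genome U133 Plus 2.0 arrays. The authors computed GC-RMA values from the scans and deposited them on the log2 scale for 54675 probe sets. GC-RMA corrects each probe for background by its sequence and normalizes between arrays, which draws dim probe sets to a common floor. The deposited values carry no detection call, and precision is limited by how few arrays there are. Probe sets were kept where 20% or more of the 27 arrays deviated by 1.5-fold or more from their median, as in the study's methods, which left 19800. Groups were taken from the sample labels.

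Cycling hypoxia was compared with control, and with chronic hypoxia, by limma's moderated test (limma 3.58.1, R 4.3.3), 3 against 3 arrays, which stands for the study's random-variance t-test. Adjustment was by Benjamini-Hochberg over all kept probe sets. Responses were compared between cell lines by an interaction contrast over 18 arrays. The procedure was tested on simulated data. Where 1 group was at or below 5 on all arrays, "at least" folds set those arrays to 5; where both were, no fold was given. Of the array's probe sets 41097 carried 1 gene symbol, 1801 several and 11777 none in the annotation used, and symbols were updated through gene IDs for 41043. Promoters were those of RefSeq (GRCh38.p14).

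Named were the 15 genes with the largest rise and the 15 with the largest fall among called probe sets with 1 symbol and a brighter mean of at least 7, up to 4 members of each list with the largest change, other members with their test (40 of these were chosen after their values were seen), the genes the study measured by qRT-PCR, marker genes, and 8 genes per direction with the largest difference of responses against each cell line. AREG, 1 of those 6 qRT-PCR genes, is not reported here. The 37 lists and all members were chosen with earlier results of these data known.

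Alternatives were leaving out each array, no filter, dim probe sets left out, quantile normalization, median centring, other fold thresholds, larger fits, an F-test over the conditions, other probe sets of a gene and a block for replicate number. Tables and figures were made with pandas 2.3.3, numpy 2.4.6 and matplotlib 3.10.9.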

Additional observations from a re-analysis of the deposited data

Results flagged for a closer look

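The response to cycling hypoxia differed between SK-OV-3 and PC-3 cells for 3133 probe sets, and between SK-OV-3 and WM793B cells for 2887, each by a test of the difference itself. The values that follow are differences of responses on the log2 scale, SK-OV-3 minus the other cell line, for the genes where they were largest among those bright in at least 1 group. Groups of 3 arrays were too small to look for single arrays that stand apart.

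Against PC-3 cells the positive differences were those of CCN5 (6.55), PTGS1 (5.81), GASK1B (4.41), SCEL (4.05), SPARC (4.03), LRRC17 (3.89), TGFBI (3.77) and TNFSF10 (3.41). Both PC-3 groups were at noise for CCN5, PTGS1, SCEL, LRRC17 and TGFBI, so a response of PC-3 cells could not be read there. The SK-OV-3 control was also at noise for CCN5, PTGS1, SCEL and LRRC17, so their differences have no exact size. GASK1B and SPARC rose in SK-OV-3 cells, by 1.97 and 1.67 on the log2 scale, and had responses of -2.44 and -2.36 in PC-3 cells. The PC-3 means of GASK1B were 2.39 under cycling hypoxia and 4.83 in control cells, both below 5. The call of SPARC in SK-OV-3 cells was lost in 4 of the 6 fits that left out 1 array (adjusted p from 0.0643 to 0.0995). The negative differences were those of SLAMF9 (-5.81), FBN2 (-4.49), CDCP1 (-4.29), AKR1C2 (-4.13), LCN2 (-3.97), SLC1A6 (-3.97), AKR1C1 (-3.91) and ALDH3A1 (-3.67). For SLAMF9, FBN2, CDCP1 and SLC1A6 both SK-OV-3 groups were at noise, and the responses of PC-3 cells were 5.71, 4.51, 4.43 and 3.97. The PC-3 control arrays were at noise for these genes too, so their responses and differences have no exact size. The same holds for the differences of ALDH3A1, at noise in SK-OV-3 cycling hypoxia, and TNFSF10, at noise in PC-3 cycling hypoxia.

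Against WM793B cells the positive differences were those of CCN5 (6.50), SCEL (5.46), LRRC17 (5.39), PTGS1 (4.92), CCL20 (4.86), E2F7 (4.22), OLFML2A (4.08) and FOS (4.06). OLFML2A, an extracellular matrix protein, was at least 4.52-fold higher under cycling hypoxia in SK-OV-3 cells, and its response in WM793B cells was -1.16. The negative differences were those of ALDH3A1 (-4.23), AKR1C2 (-4.0), AKR1C1 (-3.88), SH3BGR (-3.64), IGFN1 (-3.35), AKR1C3 (-3.04), ME1 (-3.02) and CYP1B1 (-2.95). Both WM793B groups were at noise for CCN5, SCEL, PTGS1, ALDH3A1, SH3BGR and IGFN1, so a response of WM793B cells could not be read there. For these genes, and for LRRC17, CCL20 and OLFML2A, the SK-OV-3 control or cycling hypoxia arrays were at noise, so the differences have no exact size. The differences of FOS, at noise in WM793B cycling hypoxia, and AKR1C1, at noise in the WM793B control, have no exact size either. CYP1B1, a cytochrome P450, fell by 1.02 in SK-OV-3 cells (adjusted p = 0.00433) and had responses of 1.76 in PC-3 and 1.93 in WM793B cells.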

How the results depend on the processing

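The count of 1770 called probe sets was 1589 without the variation filter, 1607 with dim probe sets left out, 1741 after quantile normalization, 1807 after median centring, 1778 and 1883 in fits of 9 and 27 arrays, and 1610 to 1748 when 1 array was left out. Only the fold threshold moved it by more than 1.5 times, to 3811 at 1.5-fold and to 6307 with none. The counts against PC-3 (3113 to 3229 with 1 array left out), WM793B (2865 to 2984) and chronic hypoxia (1009 to 1350, and 1025 without the filter) stayed within that range. Replicate numbers did not pair the arrays (correlations of deviations -0.06, 0.08 and -0.09), and with a replicate block the counts were 1540, 3122, 2861 and 1034. Among the lists, the block lowered the rising cytokines to 7 and the rising NF-kB genes to 5, and without the filter the rising interferon-stimulated genes were 9 and the NF-kB genes 5. The median of the MHC class I list, -0.22, was 0.02 without control replicate 1 and ran from -0.26 to 0.02 over the fits with 1 array left out. Other probe sets reversed the sign for THBS1 (-0.01), INHBA (-0.00), PSPH (0.02), NOP16 (-0.47) and HSPA4L (0.33). Of 215 probe sets examined singly, 27 lost their call without the filter, 23 with the block (CXCL1, IL1A, EREG and TOP2A among them, adjusted p from 0.0502 to 0.0524) and 7 in the fit of 27 arrays. The causes were not tested.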

Other observations

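Of 12 oxygen-dependent histone demethylases 4 rose and none fell, where 19.8% of all genes rose. KDM7A measured 6.82, 6.47 and 6.76 under cycling hypoxia, against 4.68, 4.93 and 5.30 in control cells (limma, log2 difference 1.71, standard error 0.19, adjusted p = 0.00325), and KDM5B rose by 0.78 (adjusted p = 0.00178). TXNIP, which binds thioredoxin and limits glucose uptake, rose by 0.75 (adjusted p = 0.00178). Its relative ARRDC4 measured 11.26, 11.16 and 11.28 under cycling hypoxia, against 10.01, 9.84 and 9.98 in control cells (log2 difference 1.29, standard error 0.06, adjusted p = 0.000506), and stood at 10.01 under chronic hypoxia. Of 13 genes of ribosome biogenesis 4 rose and 1 fell; for NOP16, at 0.72 (adjusted p = 0.00136), another probe set had the opposite sign, at -0.47.

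Of 13 targets of p53 2 rose (15.4%) and 3 fell (23.1%), near the 19.8% and 16.7% of all genes, and 1 rose in 5 of the 6 fits that left out 1 array. GDF15, a stress cytokine, measured 10.97, 10.83 and 10.89 under cycling hypoxia, against 12.18, 12.28 and 12.32 in control cells (log2 difference -1.36, standard error 0.06, adjusted p = 0.000427), and stood at 8.77 under chronic hypoxia; other probe sets of GDF15, at -0.50 and -0.65, did not pass the test. CDKN1A, the CDK inhibitor p21, had 0.27 (adjusted p = 0.11). In the list of MHC class I and antigen processing 5 of 13 genes fell and none rose, the proteasome subunit PSMB10 by 0.62 (adjusted p = 0.00688), and 3 fell without control replicate 2, without cycling replicate 1 or without cycling replicate 3. Of 10 cytosolic heat shock genes 3 fell, 1 of them at noise in both groups, with HSPE1 lower by 0.71 (adjusted p = 0.00242). Among 8 metallothioneins and regulators 4 rose, and the number was 0 without control replicate 1 or without cycling replicate 2, 1 without control replicate 2 and 2 without cycling replicate 1. Of 13 prostaglandin genes, PTGS1 included, 3 rose, 2 of them at noise in both groups, and 2 fell (23.1% and 15.4%), near the shares of all genes; 1 fell without cycling replicate 1 or 3. PTGS2 stood at 2.93 under cycling hypoxia and 2.31 in control cells, both at noise.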
